A study of Mus musculus with 5 samples.

Results

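The mitosis and kinetochore genes described here are 50 genes that work while a cell separates its copied chromosomes and divides. They were taken from a list of gene symbols, drawn up with earlier results of these data known, in a table of read counts for 21983 mouse genes. All 50 are listed in the table, and 49 of them had counts and could be tested, among 12543 genes tested in all. The exception was Kif11, which encodes the motor that pushes the spindle poles apart. It was listed with 0 counts in each of the 5 libraries, a floor of 3 counts or 0.162 to 0.223 CPM (CPM being the count scaled to a common library size), and Trem2, a receptor gene of microglia, was also listed at 0 throughout. A row at 0 in every library can be a counting failure, so nothing is said here about the presence of Kif11 transcripts.

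The RNA came from primary microglia, the macrophages that reside in brain tissue, and the study asked what changes when they lose Ythdf2, which encodes a reader of methylated adenosine that sends marked mRNAs to decay. There were 2 libraries of the genotype Cx3cr1CreERT2 Ythdf2fl/fl, called labelled knockout 1 and 2 below, and 3 of the genotype Ythdf2fl/fl, called controls 1 to 3, so that both groups carried floxed Ythdf2. CreERT2 is a recombinase that tamoxifen activates, and the Cx3cr1 promoter that drives it is also used by monocytes and by macrophages at the brain's borders. Tamoxifen treatment, the age of the mice, time in culture and whether the libraries came from separate animals are not stated in the labels, so the tests measure only the spread between these libraries, which may be technical.

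Total gene counts ran from 13947500 to 19577217 per library. Ythdf2 was not lower in the libraries labelled knockout, with 103.5 and 127 CPM there against 57.0, 69.2 and 68.8 CPM in controls 1 to 3. Cx3cr1, whose promoter drives the recombinase in the labelled knockout genotype, was lower in both, with 337 and 97.7 CPM against 682, 992 and 681 CPM. Every direction given below is drawn by the labels. The total level of Ythdf2 did not show the loss that they name. Counts per gene do not show whether the floxed part of Ythdf2 was removed, so the labels could not be checked here.

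Mitosis begins when the kinase encoded by Cdk1, bound to cyclins A and B, drives the cell out of its G2 phase. Kinetochores, protein assemblies built on centromeres, then attach chromosomes to spindle microtubules, and the spindle assembly checkpoint holds back the anaphase-promoting complex until every chromosome is attached. Transcripts of these genes accumulate late in the cell cycle and are scarce in resting cells, as most adult microglia are, whereas microglia in culture or after injury can divide.

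The 50 genes together took 0.339% of the counts in labelled knockout 1 (95% exact binomial interval 0.336% to 0.341%) and 0.105% in labelled knockout 2 (0.104% to 0.107%). In the controls they took 0.0525% (0.0514% to 0.0537%), 0.0567% (0.0555% to 0.0578%) and 0.117% (0.115% to 0.119%). These intervals cover counting error only. Labelled knockout 1 stood above every other library, while labelled knockout 2 lay between the first 2 controls and control 3, so the summed share of the groups overlapped. In bulk RNA a larger number of dividing cells and more mitotic RNA per cell cannot be told apart.

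**Figure D1:**
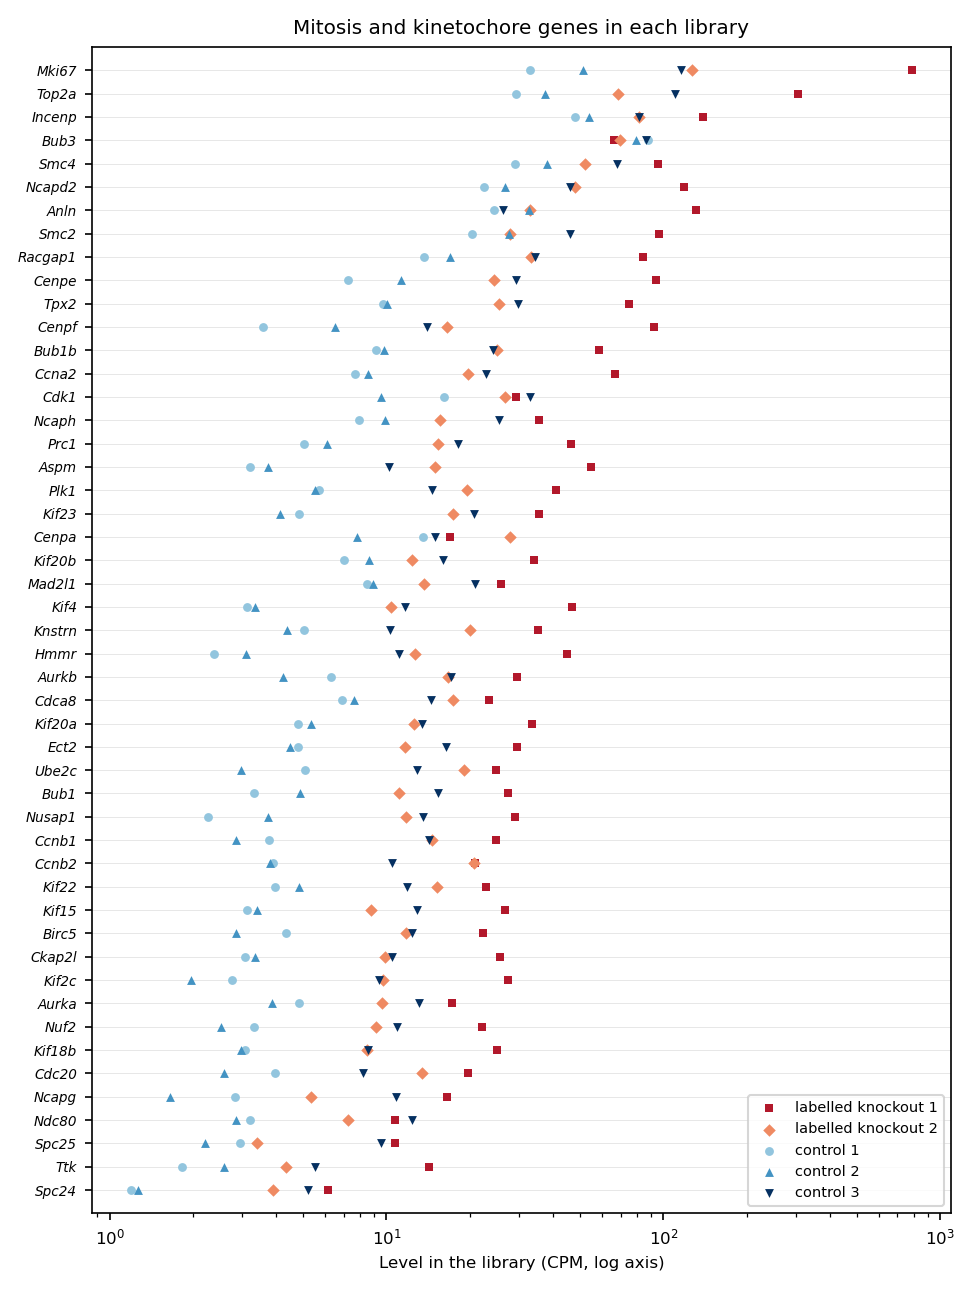
Levels of the mitosis and kinetochore genes in each of the 5 libraries, in CPM on a log axis, with 1 row per gene, ordered by mean level, and 1 point per library. Labelled knockout 1 is the highest point for 45 of 49 genes, control 3 lies near labelled knockout 2 for many genes, and control 1 or 2 is the lowest for 48.

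The order of the libraries was nearly the same from gene to gene. Labelled knockout 1 was highest for 45 of the 49 genes, and the exceptions were Cdk1 and Ndc80, highest in control 3, Cenpa, highest in labelled knockout 2, and Bub3, highest in control 1. Control 1 was lowest for 29 genes and control 2 for 19. Among these 45 genes, the next highest library was control 3 for 28 and labelled knockout 2 for 17. Labelled knockout 2 exceeded control 3 for 18 genes (36.7%, a smaller share than the 52.1% of all genes tested). These 18 were also the genes whose labelled knockout libraries both lay above all 3 controls. Of all genes tested, 9.85% lay above all controls in this way, against 36.7% of the 49.

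Libraries of the same group lay far apart. The median gene stood at 3.72 times the control mean in labelled knockout 1 and at 1.58 times in labelled knockout 2. Within the controls, the median gene in control 3 stood at 2.85 times the mean of controls 1 and 2. The ratio exceeded 2 for 45 genes in labelled knockout 1, for 12 in labelled knockout 2 and for 42 in control 3 against the other 2 controls. The control mean includes control 3, so the ratios of labelled knockout 2 and control 3 have different denominators. Against control 2 alone, the median ratio was 2.57 for labelled knockout 2 and 2.87 for control 3. Labelled knockout 2 exceeded both control 1 and control 2 for 48 of the 49 genes, and control 3 did so for 47. Labelled knockout 1 against labelled knockout 2 gave ratios from 0.608 for Cenpa to 6.25 for Mki67, with a median of 2.47.

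Comparing the groups, 48 of the 49 genes had a positive log2 fold change, labelled knockout over control, and the median was 1.50. Over all 12543 genes 51.1% were positive and the median was 0.01. By edgeR's quasi-likelihood test with Benjamini-Hochberg adjustment over all genes, 0 of the 49 passed the threshold of 0.05, as did 0% of all genes (838 of which had an unadjusted p under 0.05). Knstrn had the smallest adjusted p of the 49, 0.37. At an unadjusted p under 0.05, 22 genes were higher and 0 were lower, which is 44.9% of the 49 against 3.99% of all genes that were higher by this measure. DESeq2, an alternative test, called 4 of the 49 higher (8.16%, against 1.06% of all genes it adjusted) and 0 lower. Its 4 calls were Knstrn (adjusted p = 0.0108), Aspm (adjusted p = 0.0265), Mki67 (adjusted p = 0.0321) and Cenpf (adjusted p = 0.0376). DESeq2 called 0 of the 49 when labelled knockout 1, control 1 or control 2 was left out, in fits that called 0.65%, 0.448% and 0.517% of all genes higher. It called 11 higher (22.4%, against 1.55% of all genes) without labelled knockout 2 and 33 (67.3%, against 1.54%) without control 3. The median log2 fold change was 0.64 without labelled knockout 1, and 3 genes (6.12%) were then higher at an unadjusted p under 0.05 in edgeR, a share near the 4.23% of all genes. The genes share these 5 libraries, so the counts of genes above are not counts of independent observations.

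**Figure D2:**
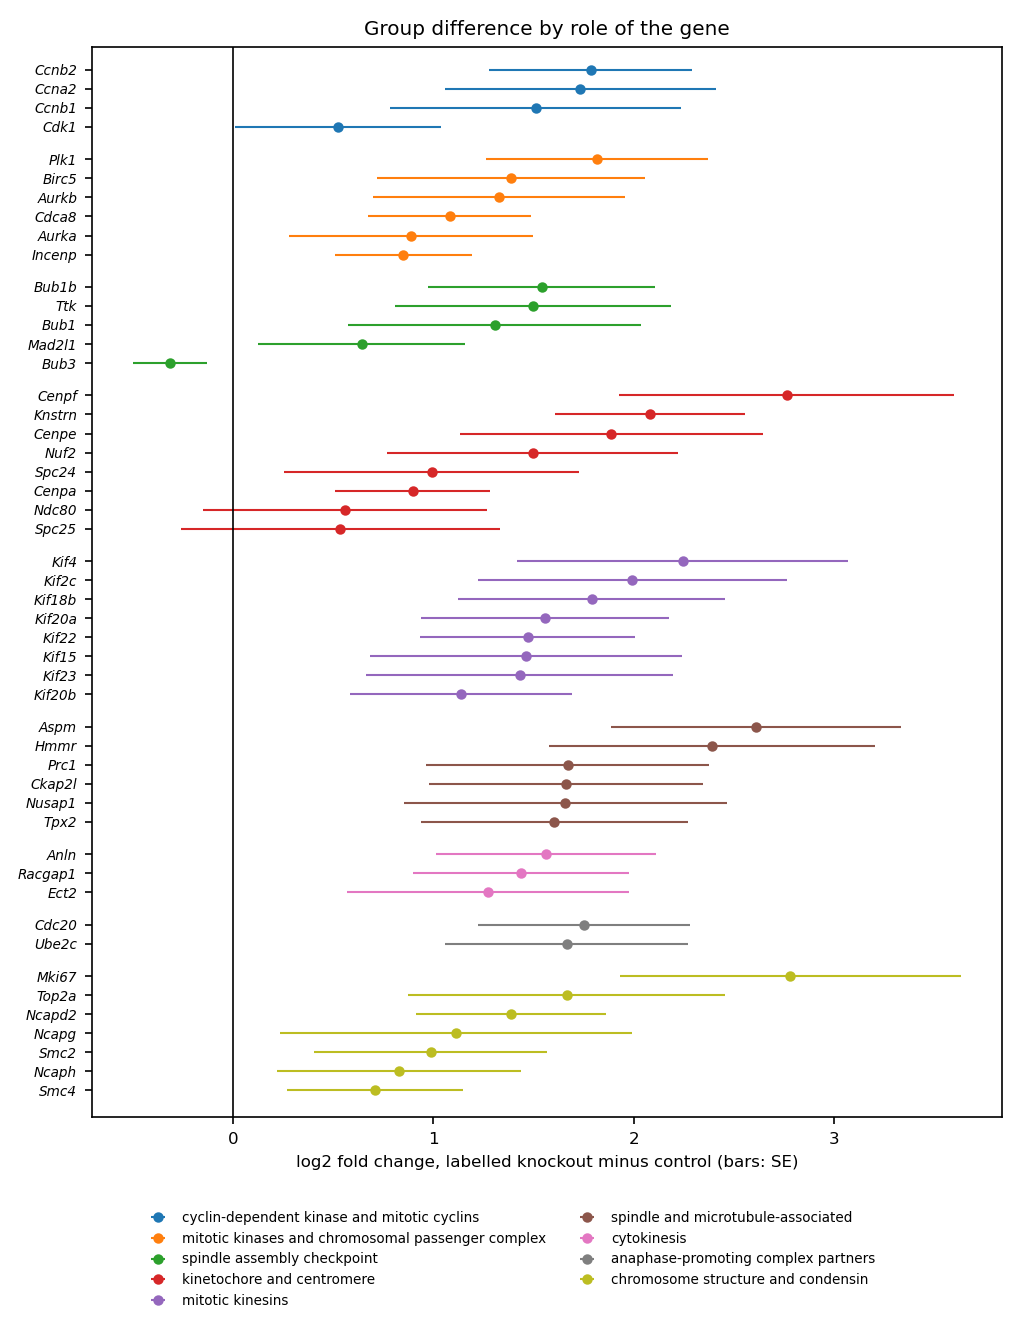
Log2 fold change of the 49 tested genes, labelled knockout over control, with bars of 1 SE from edgeR, ordered within roles. All genes but Bub3 lie above 0, from 0.52 for Cdk1 to 2.78 for Mki67.

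The 4 genes called by DESeq2 belong to different parts of the mitotic apparatus. Mki67, at chr7:135689784-135716361 on the minus strand of GRCm38, encodes Ki-67, a protein that coats mitotic chromosomes and is used as a marker of dividing cells. It stood at 789.9 and 126 CPM in labelled knockout 1 and 2 and at 33.0, 51.4 and 115 CPM in controls 1 to 3. Labelled knockout 1 was far above the rest, and labelled knockout 2 only just exceeded control 3. The log2 fold change was 2.78 (SE 0.851), with an adjusted p of 0.575 in edgeR. Mki67 alone made up 24.9% of the summed CPM of the 50 genes in labelled knockout 1, 11.3% in labelled knockout 2 and 6.42% to 9.53% in the controls.

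Cenpf, at chr1:189640606-189688086 on the minus strand, encodes a large protein of the outer kinetochore. It stood at 92.1 and 16.6 CPM in labelled knockout 1 and 2 and at 3.58, 6.53 and 14.0 CPM in the controls, so that again 1 library was far above and the other close to control 3. Its log2 fold change was 2.76 (SE 0.836), and its adjusted p in edgeR 0.572. Aspm, at chr1:139454772-139494091 on the plus strand, encodes a protein of the spindle poles. Its levels were 54.5 and 14.9 CPM against 3.21, 3.74 and 10.2 CPM, and here too labelled knockout 2 was nearer to control 3 than to labelled knockout 1. The log2 fold change was 2.61 (SE 0.724) with an edgeR adjusted p of 0.503.

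Knstrn, at chr2:118814003-118853957 on the plus strand, encodes kinastrin, which helps chromosomes to align and sister chromatids to separate. With 35.3 and 19.996 CPM against 5.03, 4.37 and 10.3 CPM it was the most even of the 4, since both labelled knockout libraries stood well above control 3. The log2 fold change was 2.08 (SE 0.474). An antisense gene, Gm14091, overlaps 2.39% of its exon bases, and the sources used here do not give the strand setting of the counting.

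The promoters of many of these genes carry a pair of short elements. The cell cycle genes homology region, or CHR, is read by repressor and activator complexes that hold G2 and M phase genes off in resting cells and turn them on late in the cycle, and the CCAAT box is bound by the activator NF-Y. RefSeq promoter windows on GRCm38.p6, each from 250 bases before to 50 after the gene's start, were available for 43 of the 50 genes, 42 of them tested. The CHR letters TTTGAA or TTCGAA, on either strand, were found in 34 of the 42 (81.0%), against 13.6% of the windows of 9872 genes tested. The letters CCAAT on either strand were found in 31 (73.8%) against 38.7%. Both were found in 29 (69.0%) against 5.84%, whereas the letters TTTNGCGC of an E2F site were found in 4 (9.52%) against 2.42%. Matches of different motifs that overlapped were each counted.

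Stretches of 6 such promoters follow, chosen to show the pair of elements in genes with large changes or in partners of the anaphase-promoting complex and Cdk1, with 2 for contrast. Each is written 5′ to 3′ on the gene's own strand, with the CHR and CCAAT letters of either strand in capitals. All but that of Mki67 run from 90 bases before to 20 after the start, and that of Mki67 from 170 to 70 before it. The starts are those of RefSeq, whereas the gene coordinates in the text come from GENCODE, another annotation. In GENCODE, Bub3 begins earlier, at chr7:131560222, so its whole stretch lies within the GENCODE gene.
Ccnb2, chr9:70421535-70421644, minus strand: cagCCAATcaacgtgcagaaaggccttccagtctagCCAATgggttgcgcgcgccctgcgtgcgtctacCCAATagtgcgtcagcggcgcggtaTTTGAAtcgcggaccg
Cdc20, chr4:118437324-118437433, minus strand: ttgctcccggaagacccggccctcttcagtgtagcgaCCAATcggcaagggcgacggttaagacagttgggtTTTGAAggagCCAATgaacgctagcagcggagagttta
Aspm, chr1:139454683-139454792, plus strand: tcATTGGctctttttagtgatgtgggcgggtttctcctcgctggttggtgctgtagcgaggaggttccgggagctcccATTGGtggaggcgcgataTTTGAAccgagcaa
Cenpf, chr1:189688067-189688176, minus strand: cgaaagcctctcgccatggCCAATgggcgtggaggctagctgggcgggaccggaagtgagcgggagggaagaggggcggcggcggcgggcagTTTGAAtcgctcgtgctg
Hmmr, chr11:40733418-40733527, minus strand: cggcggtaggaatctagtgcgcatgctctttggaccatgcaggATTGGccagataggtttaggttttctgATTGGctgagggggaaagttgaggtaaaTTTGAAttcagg
Mki67, chr7:135716450-135716549, minus strand: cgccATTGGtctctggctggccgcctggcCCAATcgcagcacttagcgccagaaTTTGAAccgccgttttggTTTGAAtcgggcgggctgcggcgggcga
Knstrn, chr2:118813913-118814022, plus strand: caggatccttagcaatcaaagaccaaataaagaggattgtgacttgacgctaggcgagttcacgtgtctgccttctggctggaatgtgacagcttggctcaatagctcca
Bub3, chr7:131560280-131560389, plus strand: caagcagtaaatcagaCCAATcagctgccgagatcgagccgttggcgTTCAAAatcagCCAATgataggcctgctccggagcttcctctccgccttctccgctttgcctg

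In Ccnb2, Aspm, Cenpf and Hmmr a single TTTGAA lies just after the start, with 1 to 3 CCAAT boxes before it, and the stretch of Mki67 holds 2 of each. Knstrn, the gene with the smallest p, has neither in the stretch shown, and Bub3, the gene whose log2 fold change was negative, has both. Among the genes of mitosis the median log2 fold change was 1.50 over the 29 tested genes with both and 1.44 over the 6 with neither. Among all other genes tested, the 548 with both had a median of 0.04.

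Among the genes that start mitosis, the log2 fold changes of the cyclins were larger than that of their kinase, a difference that was not tested. Ccna2, which encodes cyclin A2, stood at 66.7 and 19.7 CPM in labelled knockout 1 and 2 against 7.67, 8.55 and 22.8 CPM in the controls, so that labelled knockout 2 lay below control 3. Its log2 fold change was 1.73 (SE 0.678). Ccnb2, which encodes cyclin B2, had almost the same level in labelled knockout 1 and 2 (20.9 and 20.6 CPM), above 3.90, 3.80 and 10.5 CPM in the controls, and its groups did not overlap. Ccnb1, encoding cyclin B1, did not overlap either but by a narrow margin, with 24.9 and 14.6 CPM against 3.77, 2.85 and 14.3 CPM. Cdk1 itself was highest in control 3 (33.0 CPM), with 29.3 and 26.8 CPM in labelled knockout 1 and 2 and 16.1 and 9.57 CPM in controls 1 and 2. Its log2 fold change, 0.52 (SE 0.513), was about as large as its error.

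The mitotic kinases and the chromosomal passenger complex, which corrects faulty attachments, had a median log2 fold change of 1.20. Plk1, encoding polo-like kinase, stood at 40.8 and 19.6 CPM in labelled knockout 1 and 2 against 5.72, 5.51 and 14.6 CPM in the controls. Its groups did not overlap, with a log2 fold change of 1.82 (SE 0.555) and an edgeR adjusted p of 0.575. The aurora kinases Aurka (17.2 and 9.67 against 4.84, 3.87 and 13.2 CPM) and Aurkb (29.5 and 16.6 against 6.29, 4.25 and 17.2 CPM) had labelled knockout 2 below control 3. Of the other passenger genes, Birc5, encoding survivin, overlapped between groups (22.3 and 11.7 against 4.34, 2.85 and 12.4 CPM), and Cdca8, encoding borealin, did not (23.4 and 17.5 against 6.91, 7.604 and 14.5 CPM).

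Incenp, the scaffold of the passenger complex, had one of the higher levels per transcript length, 25.0 CPM per kb on average over the 5 libraries. It stood at 139 and 81.93 CPM in labelled knockout 1 and 2 against 48.0, 53.9 and 81.91 CPM, so that labelled knockout 2 and control 3 were level. The log2 fold change of 0.85 (SE 0.341) was among the smaller ones.

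The 5 spindle checkpoint genes held the exception. Bub3, at chr7:131560222-131571895 on the plus strand, encodes a checkpoint protein that is also present in cells between divisions. With 66.2 and 69.8 CPM in labelled knockout 1 and 2 against 87.7, 79.9 and 86.3 CPM, it was the only gene of the 49 lower in both than in all controls, as 10.4% of all genes were. Its log2 fold change was -0.32 (SE 0.184), and its edgeR adjusted p 0.874. Per transcript length it had the highest mean level of all 49, 35.2 CPM per kb.

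The other checkpoint genes were highest in labelled knockout 1. Bub1b, encoding the checkpoint protein BubR1, had 58.6 and 25.1 CPM in labelled knockout 1 and 2 against 9.18, 9.76 and 24.3 CPM, which gave a log2 fold change of 1.54 (SE 0.566). Labelled knockout 2 and control 3 were nearly level there. Bub1 (27.5 and 11.1 against 3.33, 4.88 and 15.3 CPM), Mad2l1 (26.0 and 13.7 against 8.49, 8.93 and 20.8 CPM) and the kinase gene Ttk (14.3 and 4.32 against 1.82, 2.60 and 5.50 CPM) all had labelled knockout 2 below control 3.

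The 8 kinetochore and centromere genes had log2 fold changes from 0.53 for Spc25 to 2.76 for Cenpf. Cenpe, which encodes a kinetochore motor, stood at 93.7 and 24.4 CPM in labelled knockout 1 and 2 against 7.29, 11.3 and 29.4 CPM, which gave a log2 fold change of 1.89 (SE 0.758). Labelled knockout 2 lay below control 3 for Cenpe, and so it did for all 4 subunits of the Ndc80 complex, which binds microtubules directly. Ndc80 had 10.7 and 7.24 CPM in labelled knockout 1 and 2 against 3.21, 2.85 and 12.3 CPM. Nuf2 had 22.2 and 9.19 CPM against 3.33, 2.53 and 10.9 CPM. Spc24 had 6.13 and 3.89 CPM against 1.19, 1.27 and 5.20 CPM.

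Spc25, the remaining subunit of that complex, showed how far the group difference rests on 1 library. It had 10.8 and 3.40 CPM in labelled knockout 1 and 2 against 2.95, 2.22 and 9.59 CPM, and control 3 came close to labelled knockout 1. The log2 fold change was 0.53 (SE 0.797), and it was -0.54 without labelled knockout 1. Cenpa, the histone H3 variant that marks the centromere, was with Bub3 the only gene of the 49 that was higher in labelled knockout 2 than in labelled knockout 1. It stood at 17.0 and 28.0 CPM there against 13.5, 7.86 and 14.9 CPM, so that both lay above the controls.

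The 8 tested mitotic kinesins, motors that move chromosomes and order spindle microtubules, had a median log2 fold change of 1.51. Kif4, a motor that travels with the chromosome arms, had 46.7 and 10.4 CPM in labelled knockout 1 and 2 against 3.14, 3.36 and 11.7 CPM. Kif2c, which takes microtubules apart at the centromere, had 27.4 and 9.73 CPM against 2.77, 1.96 and 9.37 CPM. Labelled knockout 2 lay close to control 3 in both, on either side of it.

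Kif22, a motor that binds chromosomes, was more even, with 22.8 and 15.2 CPM against 3.96, 4.82 and 11.9 CPM, and both labelled knockout libraries lay above all controls. Kif23 encodes a motor of the central spindle needed to finish division. It had 35.6 and 17.4 CPM against 4.84, 4.12 and 20.7 CPM, which gave a log2 fold change of 1.43 (SE 0.767), and its groups overlapped. Kif20b, another motor of late division, had the smallest log2 fold change of the kinesins, 1.14 (SE 0.553), with 34.2 and 12.3 CPM against 7.04, 8.68 and 16.1 CPM. Labelled knockout 2 was also below control 3 for Kif15 (26.8 and 8.81 against 3.14, 3.42 and 12.9 CPM) and Kif20a (33.4 and 12.6 against 4.78, 5.32 and 13.5 CPM), and level with it for Kif18b (25.0 and 8.54 against 3.08, 2.98 and 8.55 CPM). Of the exon bases of Kif20a, 29.3% are shared with Cdc23 on the other strand, and of those of Kif4, 15.1% with Pdzd11, so counts of both genes are uncertain without strand.

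The 6 genes of the spindle and its microtubules had a median log2 fold change of 1.67. Tpx2, which encodes an activator of aurora A that builds the spindle, had 75.1 and 25.4 CPM in labelled knockout 1 and 2 against 9.74, 10.1 and 29.9 CPM, or 1.60 (SE 0.667) as a log2 fold change. Prc1, encoding the protein that bundles microtubules between the separating chromosomes, had 46.3 and 15.4 CPM against 5.03, 6.08 and 18.1 CPM, or 1.67 (SE 0.706) as a log2 fold change. Both showed labelled knockout 2 just below control 3, as did Nusap1 (29.2 and 11.8 against 2.26, 3.74 and 13.6 CPM) and Ckap2l (25.6 and 9.89 against 3.08, 3.36 and 10.5 CPM). Hmmr, a spindle gene that also encodes a hyaluronan receptor, stood at 44.8 and 12.7 CPM against 2.39, 3.10 and 11.1 CPM, with labelled knockout 2 just above control 3.

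The genes of cytokinesis did not all keep the common order. Racgap1, part of the central spindle complex, had 84.2 and 33.3 CPM in labelled knockout 1 and 2 against 13.6, 17.0 and 34.5 CPM, or 1.44 (SE 0.541) as a log2 fold change. Ect2, which it activates to start the contractile ring, had 29.5 and 11.7 CPM against 4.78, 4.50 and 16.4 CPM, or 1.27 (SE 0.704) as a log2 fold change. In both, controls 1 and 2 were alike and control 3 lay above labelled knockout 2.

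Anln, encoding the ring protein anillin, differed in that control 3 was not above controls 1 and 2. It had 131 and 32.86 CPM in labelled knockout 1 and 2 against 24.4, 32.82 and 26.3 CPM, which gave a log2 fold change of 1.56 (SE 0.550). Labelled knockout 2 was level with control 2, and control 3 stood at 0.92 times the mean of controls 1 and 2, the lowest such ratio of the 49 genes. Anln is also expressed by myelinating oligodendrocytes. The summed level of 12 oligodendrocyte markers was 13262 CPM in labelled knockout 1, 4827 CPM in labelled knockout 2, 11064 and 10067 CPM in controls 1 and 2, and 1358 CPM in control 3, so of the controls it was by far the lowest in control 3. None of the 12 was at 0 throughout, and their part in the level of Anln was not tested.

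Both partners of the anaphase-promoting complex had groups that did not overlap. Cdc20, its activator and the target of the checkpoint, had 19.6 and 13.5 CPM in labelled knockout 1 and 2 against 3.96, 2.60 and 8.25 CPM, which gave a log2 fold change of 1.75 (SE 0.528). Ube2c, the enzyme that supplies it with ubiquitin, had 24.9 and 19.1 CPM against 5.09, 2.98 and 12.9 CPM, which gave a log2 fold change of 1.67 (SE 0.606). The edgeR adjusted p was 0.572 for Cdc20 and 0.687 for Ube2c. Tnnc2 on the other strand shares 22.8% of the exon bases of Ube2c.

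Beside Mki67, the genes of chromosome structure were Top2a and 5 of the condensins. Top2a, encoding the topoisomerase that untangles sister chromatids, stood at 306 and 68.5 CPM in labelled knockout 1 and 2 against 29.5, 37.5 and 110.3 CPM. Control 3 was well above labelled knockout 2, and the log2 fold change was 1.67 (SE 0.790). Condensin is the complex that compacts chromosomes for division.

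Smc4, a core subunit of condensin, had 95.5 and 51.9 CPM in labelled knockout 1 and 2 against 29.2, 38.0 and 68.2 CPM, which gave a log2 fold change of 0.71 (SE 0.441). Smc2, its partner, had 96.7 and 27.8 CPM against 20.4, 27.8 and 46.1 CPM, so labelled knockout 2 was level with control 2. Ncapg (16.6 and 5.35 against 2.83, 1.65 and 10.9 CPM) and Ncaph (35.5 and 15.6 against 7.98, 9.88 and 25.4 CPM) also had control 3 above labelled knockout 2. Ncapd2, with 118 and 47.8 against 22.6, 26.7 and 45.9 CPM, was the only condensin gene whose labelled knockout libraries both lay above all controls.

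Labelled knockout 1 differed from the other libraries in a way that followed transcript length, and this touches the largest ratios above. Over the 49 genes, the log2 ratio of labelled knockout 1 to labelled knockout 2 correlated with log2 transcript length with a Pearson r of 0.68 and a Spearman rho of 0.67. Over 12510 genes tested the same correlation was 0.47 by r and 0.48 by rho. These are correlations across genes of the same 2 libraries, and genes are not independent replicates. For labelled knockout 1 against the controls r was 0.55 over the 49 genes and 0.41 over all. For labelled knockout 2 against the controls it was -0.11 over the 49 genes and -0.17 over all. The controls also differed among themselves, as r for control 3 against controls 1 and 2 was -0.008 over the 49 genes and -0.21 over all.

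The 17 shortest genes, with transcripts of 0.947 to 2.695 kb, had a median ratio of labelled knockout 1 to the control mean of 3.20, against 0.799 for all tested genes of such lengths. For the 16 longest, of 4.161 to 11.13 kb, the medians were 4.63 and 1.22. The mitosis genes of each length class thus stood above other genes of that length, and the long ones stood highest. Mki67, Cenpf and Aspm, the genes with the largest log2 fold changes, have transcripts of 10.061, 11.13 and 9.867 kb.

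After each library was corrected for its trend with length, a step added after the data were seen, the ratio of labelled knockout 1 to the control mean was 5.94 in place of 11.9 for Mki67, 5.48 in place of 11.5 for Cenpf and 4.79 in place of 9.55 for Aspm. The median over the 49 genes moved little, from 3.72 to 3.67 in labelled knockout 1 and from 1.58 to 1.52 in labelled knockout 2. The log2 fold changes of the 4 genes called by DESeq2 then lay close together, at 1.97 for Mki67, 1.94 for Cenpf, 1.91 for Aspm and 1.86 for Knstrn. Both labelled knockout libraries lay above all controls for 11 of the 49 genes in place of 18, which is 22.4% against 8.68% of all genes after the same correction. Aspm and Knstrn were still among them, but Mki67 and Cenpf were not. Labelled knockout 2 had 152 corrected CPM of Mki67 and 20.18 of Cenpf, against 163 and 20.24 in control 3.

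**Figure D3:**
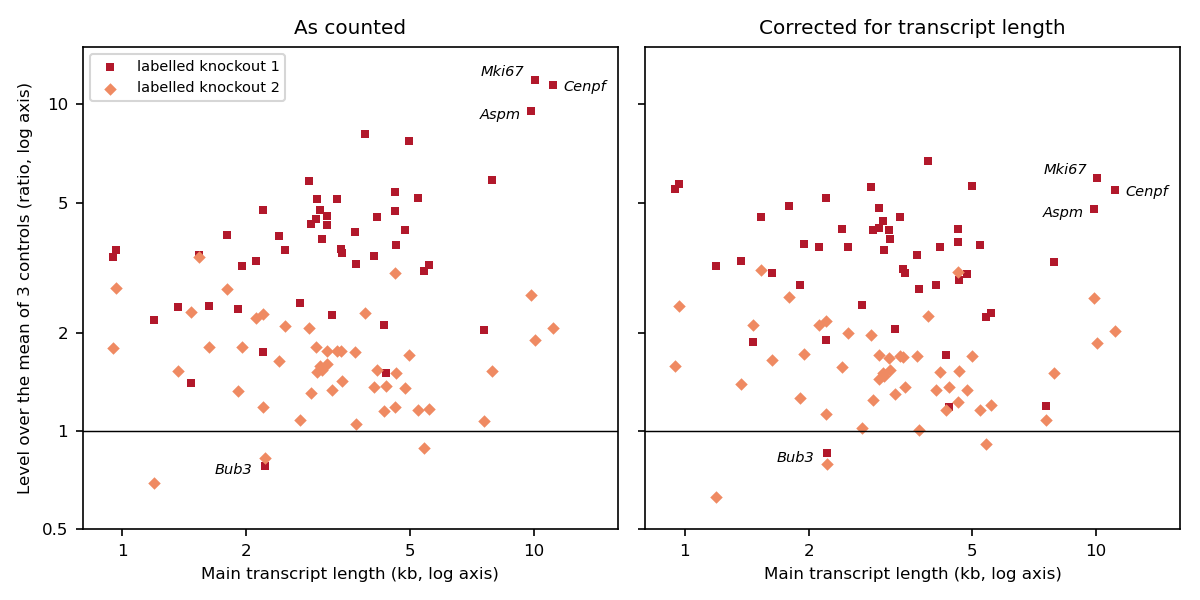
Ratio of each of the 49 genes to the control mean (log axis) against its transcript length in kb (log axis), before and after correction of each library for its length trend, with labelled knockout 1 and 2 in separate colours. In labelled knockout 1 Mki67 is at 11.9 before the correction and at 5.94 after it, while the median is 3.72 before and 3.67 after.

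Other mitosis genes, 71 in a separate list, were mostly positive as well, with a smaller median. Of the 64 tested, 60 had a positive log2 fold change, and the median was 1.10. At an unadjusted p under 0.05, 8 were higher (12.5%, against 3.99% of all genes) and 0 lower (2.69% of all genes were), with 0 called by edgeR or DESeq2 after adjustment. In both labelled knockout libraries 13 lay above all controls, or 20.3% against 9.85% of all genes. Kif14, a kinesin of cytokinesis, had 30.1 and 6.92 CPM in labelled knockout 1 and 2 against 2.45, 3.36 and 6.10 CPM, and Cdc25b, a phosphatase that activates Cdk1, had 50.3 and 34.4 CPM against 14.8, 12.7 and 26.8 CPM. In both genes control 3 was again the highest control.

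The regulators of the cell cycle showed no common direction. Of 23 tested, 12 were positive, the median log2 fold change was 0.01, and 3 were higher (13.04%) and 1 lower at an unadjusted p under 0.05, against the same 3.99% and 2.69% of all genes. Foxm1, the transcription factor that drives mitotic genes, had the order of libraries found for 19 of the 49 mitosis genes, with 87.4 and 22.0 CPM in labelled knockout 1 and 2 against 9.37, 9.57 and 23.8 CPM. Its log2 fold change was 1.94 (SE 0.682). Of 19 tested cyclins and inhibitors of the G1 phase, 9 were positive, the median was -0.02, and 0 were higher and 1, Gadd45b, lower at that level. In both lists 0 genes were called by edgeR or DESeq2.

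Genes of DNA replication, which takes place before G2 and mitosis, had a smaller group difference in the same libraries. Of 50 tested, 39 were positive (78%, against 51.1% of all genes), with a median log2 fold change of 0.36. Labelled knockout 1 exceeded both control 1 and control 2 for 44 of the 50, and control 3 did so for 48. In this list 0 genes were called by edgeR or DESeq2. At an unadjusted p under 0.05 in edgeR, 0 were higher and 1 lower, against 3.99% and 2.69% of all genes. The lower gene was Pcna, the sliding clamp of DNA polymerase, with 106 and 105.5 CPM in labelled knockout 1 and 2 against 182, 164 and 288 CPM, so that its groups did not overlap. Labelled knockout 2 exceeded control 3 for 1 of the 50 replication genes, against 18 of the 49 mitosis genes and 52.1% of all genes tested. The median ratio of labelled knockout 2 to control 3 was 0.550 for replication genes and 0.889 for mitosis genes.

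The balance of the lists was compared within each library after their values had been seen, and it is given as a description with no test. The summed CPM of the 50 mitosis genes was 3170 and 1114 in labelled knockout 1 and 2 and 514, 565 and 1212 in the controls, and that of the 50 replication genes was 2313 and 1088 against 1202, 1193 and 2022. Mitosis over replication came to 1.37 and 1.02 in labelled knockout 1 and 2 against 0.427, 0.474 and 0.599 in controls 1 to 3, so that the groups did not overlap, although they did for the mitosis sum itself. Without Mki67 and Pcna the ratios were 1.08 and 1.01 against 0.471, 0.499 and 0.632. After the length correction they were 1.18 and 1.08 against 0.438, 0.456 and 0.647. Control 3, with nearly the mitosis sum of labelled knockout 2, had 2022 CPM of replication transcripts where labelled knockout 2 had 1088.

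**Figure D4:**
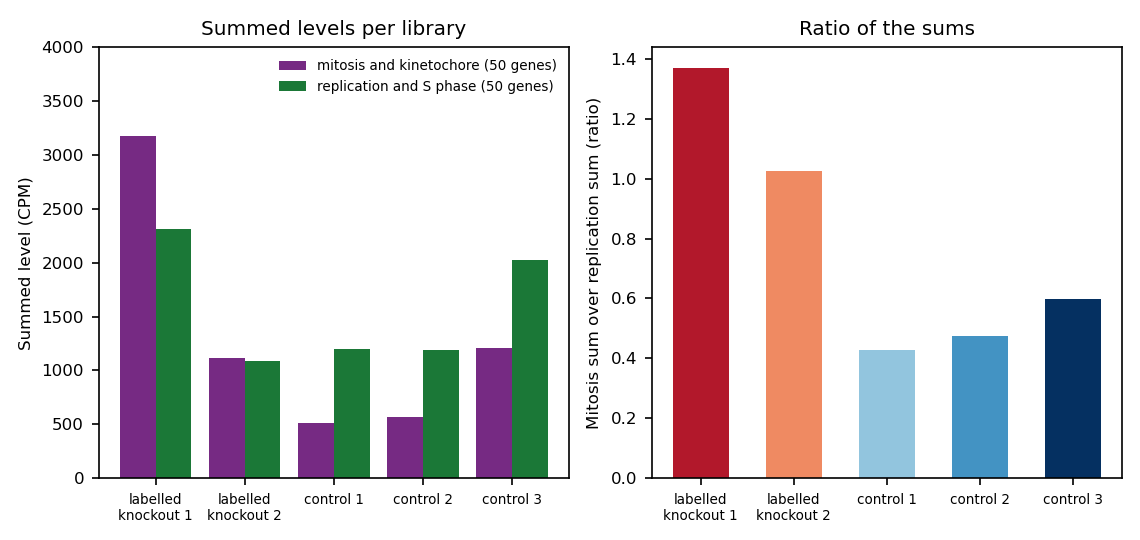
Summed CPM of the 50 mitosis and kinetochore genes and of the 50 replication genes in each library (left), and the ratio of the mitosis sum to the replication sum (right), with bars from 0 and 1 bar per library. The ratio is 1.37 and 1.02 in the libraries labelled knockout and 0.427 to 0.599 in the controls.

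The labelled cell type was checked against 12 microglia markers. Csf1r, the receptor for the growth factor that keeps microglia alive, stood at 2372 to 4220 CPM and C1qa, a complement gene, at 569.6 to 2509 CPM, while P2ry12 and Tmem119, which mark microglia in their resting state, stood at only 8.81 to 32.5 and 5.35 to 34.1 CPM and are named after their values were seen. The summed level of the 12 was 4021 and 6733 CPM in labelled knockout 1 and 2 against 7656, 8001 and 8034 CPM in the controls. The sum was lowest in labelled knockout 1, where the mitosis genes were highest. It was highest in control 3, where the mitosis genes took a larger share of counts than in labelled knockout 2 and controls 1 and 2. In labelled knockout 1 and controls 1 and 2 it was below the summed oligodendrocyte markers given with Anln.

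Markers of other cell types also differed between the libraries. Monocyte markers, 10 genes with 1 at 0 throughout, summed to 357 and 368 CPM against 184, 231 and 264 CPM. Choroid plexus and ependymal markers, 8 genes with none at 0 throughout, summed to 169 and 225 CPM against 30.7, 11.9 and 29.6 CPM. Ttr alone made up 101 and 203 CPM in labelled knockout 1 and 2, while labelled knockout 1 was highest for 6 of the 8. Astrocyte markers (9 genes, none at 0 throughout) ranged from 103 to 138 CPM in the libraries labelled knockout and from 52.0 to 244 CPM in the controls.

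Markers of neurons and neural progenitors (12 genes, none at 0 throughout) ranged from 44.4 to 150.5 CPM and from 17.8 to 85.5 CPM in the same way. Endothelial markers, with 3 of 9 at 0 throughout including the defining gene Cldn5, ranged from 96.8 to 137 CPM and from 51.2 to 134 CPM. Mural cell and fibroblast markers, with 1 of 11 at 0 throughout, ranged from 17.9 to 48.6 CPM and from 54.0 to 205 CPM. Of these lists only the monocyte and the choroid plexus lists had summed levels higher in both libraries labelled knockout than in every control.

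Many markers of other blood cells were rows at 0 in all libraries, which, as for Kif11 and Trem2, does not show that the transcripts were absent. Neutrophil markers, with 5 of 10 at 0 throughout including Ly6g and S100a9, summed to 3.45 and 28.3 CPM in labelled knockout 1 and 2 and to 3.94 to 5.45 CPM in the controls. Those of T, B and NK cells, with 7 of 11 at 0 throughout, summed to 8.54 to 9.40 CPM and, in the controls, to 4.44 to 73.9 CPM, of which Cd4 in control 3 made up 73.7 CPM. Erythroid markers, with 6 of 10 at 0 throughout, summed to 68.5 to 141 CPM and 105 to 248 CPM, nearly all of it Tfrc, the transferrin receptor gene that many dividing cells express (67.8 to 139.96 CPM and 104 to 247 CPM). Whether the mitotic transcripts came from microglia or from another dividing cell type, and the part of each of these lists in the levels above, was not tested.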

How the data were processed

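RNA sequencing counts of 5 libraries of primary mouse microglia were used, 2 labelled knockout and 3 control, grouped by their titles. The title of the third control carries the replicate number 2 as well as its library number 3, and the library number was used. The authors deposited whole-number counts of reads per gene symbol. Per the submitters' processing notes, the tools were FastQC, STAR and HTSeq and the build was mm10. Versions, annotation and strand setting were not given in the sources used here. Transcript lengths, coordinates and exon overlaps came from GENCODE release M21, and promoter windows from RefSeq on GRCm38.p6.

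Genes were tested with edgeR 4.0.16 in R 4.3.3 (filterByExpr, TMM factors, robust quasi-likelihood F test, two-sided, 3 residual degrees of freedom), with Benjamini-Hochberg adjustment over 12543 genes and a threshold of 0.05. The biological coefficient of variation was 0.408. The SE of a log2 fold change was derived from the F statistic. DESeq2 1.42.0, limma-voom (limma 3.58.1), other scalings and filters, a replicate block and leaving out each library were the alternatives. A loess correction (span 0.3) on transcript length was chosen after seeing the data. The steps were tested on simulated data.

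The genes and lists were chosen with earlier results of these data known. Log2 fold changes are given for members called by either test and, in each role, for the 2 with the highest mean CPM and the 1 with the lowest log2 fold change. Of each other pathway list at most the 4 genes with the smallest p are named. Total counts of 13947500 to 19577217 make 1 count worth 0.0540 to 0.0743 CPM.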

Additional observations from a re-analysis of the deposited data

How the results depend on the processing

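By edgeR, 0 genes were called under the other scalings (DESeq2's size factors, upper quartile, library totals), without a filter, with at least 1 CPM in 3 libraries, by limma-voom, after the length correction and with any library left out. DESeq2 called 232 genes, 4 of them among the mitosis genes. The number of mitosis genes with a positive log2 fold change stayed at 48 of 49 except without labelled knockout 1, where it was 46. Their median log2 fold change was between 0.64 (without labelled knockout 1) and 2.24 (without control 3) with libraries left out, and those at an unadjusted p under 0.05 numbered 3 to 44 in the same 2 fits (6.12% and 89.8%, against 4.23% and 4.26% of all genes higher). DESeq2 called 0 to 33 of them with libraries left out, and both groups stayed apart for 18 to 48 of them. They did so for 18 (36.7%) without labelled knockout 1, control 1 or control 2, when 26.8%, 12.5% and 14.97% of all genes lay above all controls. They did so for 46 without labelled knockout 2 and 48 without control 3, when 34.5% and 16.4% of all genes did. After the length correction that number was 11 (22.4%, against 8.68%). The log2 fold change of Spc25 ran from -0.54 without labelled knockout 1 to 1.45 without control 3. A fit with 1 labelled knockout library assumes that it varies like the controls.

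A replicate block, pairing libraries 1 and 2 of each group, gave 4 genes called by edgeR, 0 of them mitosis genes. Of the mitosis genes, 41 were higher at an unadjusted p under 0.05 in that edgeR fit (83.7%, against 3.14% of all genes). DESeq2 with the block called 20 mitosis genes higher (40.8%, against 0.693% of all genes), among 151 genes called in either direction. The deviations of same-numbered libraries from their group means correlated at 0.15 for number 1 and -0.56 for number 2. With only 2 labelled knockout libraries, the deviations of 1 are those of the other with the sign reversed. The 2 correlations are therefore not separate checks and cannot show whether the numbers pair the samples. Nothing in the labels ties the same-numbered libraries. Control 3 has no partner in this fit.

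With 2 libraries against 3 that differ this much within groups, the spread between libraries limits every comparison here. Depth adds to this for genes with few counts, as Spc24 had 19 to 103 counts per library.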
